A study of Zea mays with 217 samples.

Results

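The genes described here are maize genes that encode transcription factors (TFs), were not themselves profiled, and were bound by most of the TFs that were. They were chosen by 3 criteria: a gene had to be listed as a target by 84 or more of the 104 profiled TFs, it could not be the gene of a profiled TF, and it had to carry a TF family in the study's annotation of its hub genes. 44 genes met all 3, out of 20067 target genes, or 0.219% of them. The limit of 84 is the 99th percentile of the in-degree, the number of TFs that list a gene, and 216 genes reached it. Of the other hub genes, 162 had no TF family and 10 were genes of profiled TFs. Because the in-degree chose the members, their high in-degree is a description and not a finding, and no test was made of it. Every value below comes from the same table, so all of them are given as descriptions without a test.

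The study profiled TF binding by ChIP-seq, in which DNA that is bound by a tagged protein is pulled down and sequenced. Each TF, carrying an epitope tag and biotinylated in the cell, was expressed from a plasmid in leaf protoplasts, which are cells without walls, from B73 seedlings 1 to 2 weeks old. The 217 libraries covered 104 TFs, with 2 libraries for 97 TFs, 3 for 5 TFs and 4 for 2 TFs, and each TF is its own group. All TFs shared the B73 background, the protoplast system and the PEG transformation. The level of each TF was thus set by a plasmid, and the cells were mesophyll cells outside their tissue. The libraries of a TF were pooled before the targets were scored, so a value has no replicate error and no comparison between TFs could be set against a spread between replicates.

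TFs of the ERF family (called EREB among the profiled TFs) carry an AP2 domain and are known for roles in ethylene, jasmonate and stress responses. WRKY proteins bind W-box elements and are known regulators of defence and senescence. A gene bound by many TFs is called a hub of the network. TIP, the model behind the table, gives each TF an average binding profile around the start of genes, scores every gene against that profile and returns a p-value. The smaller the p-value, the stronger the binding at a gene relative to all genes for the same TF.

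The table listed 272627 edges, each joining 1 TF to 1 target gene, with p-values from 0 to below 0.05. The smallest p-value of a TF over all its targets differed widely between TFs, from 0 for 8 TFs to 5.53e-11 for bHLH163, with a median of 3.45e-27. Strength was therefore read as a rank percentile within the targets of a TF, on which 100 is the smallest p-value of that TF and values near 0 are targets just inside its list. Sequences and genome positions of the members were not analysed here, and the members are named by their B73 RefGen_v4 identifiers and families.

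The 44 members fell into 12 families. ERF and WRKY had 12 genes each and together made up more of the set than all other families. MYB followed with 5 genes, C2H2 and GRAS had 3 each, NAC and bHLH had 2 each, and bZIP, HSF, LBD, G2-like and RAV had 1 each. Their in-degree ran from 84 to 97 with a median of 88. 3 members sat on the limit at 84, namely Zm00001d026050 (GRAS), Zm00001d038878 (MYB) and Zm00001d038451 (WRKY), and another 5 sat at 85. Just outside, 18 genes that were not profiled had an in-degree of 83. The 3 members at the limit had 39, 56 and 71 TFs at a p-value of 0.001 or less, and the 18 genes below it had 32 to 65 with a median of 47.5.

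Of the 4576 pairs of a member and a TF, 3918 were listed, or 85.6%, against 13.1% over all target genes and TFs. The share at a p-value of 0.001 or less was 59.1% for the members and 3.56% for all genes. At 1e-05 or less it was 36.2% for the members and 1.33% for all genes. The rule set the first of these shares and bears on the others, so nothing was read from the contrast.

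**Figure D1:**
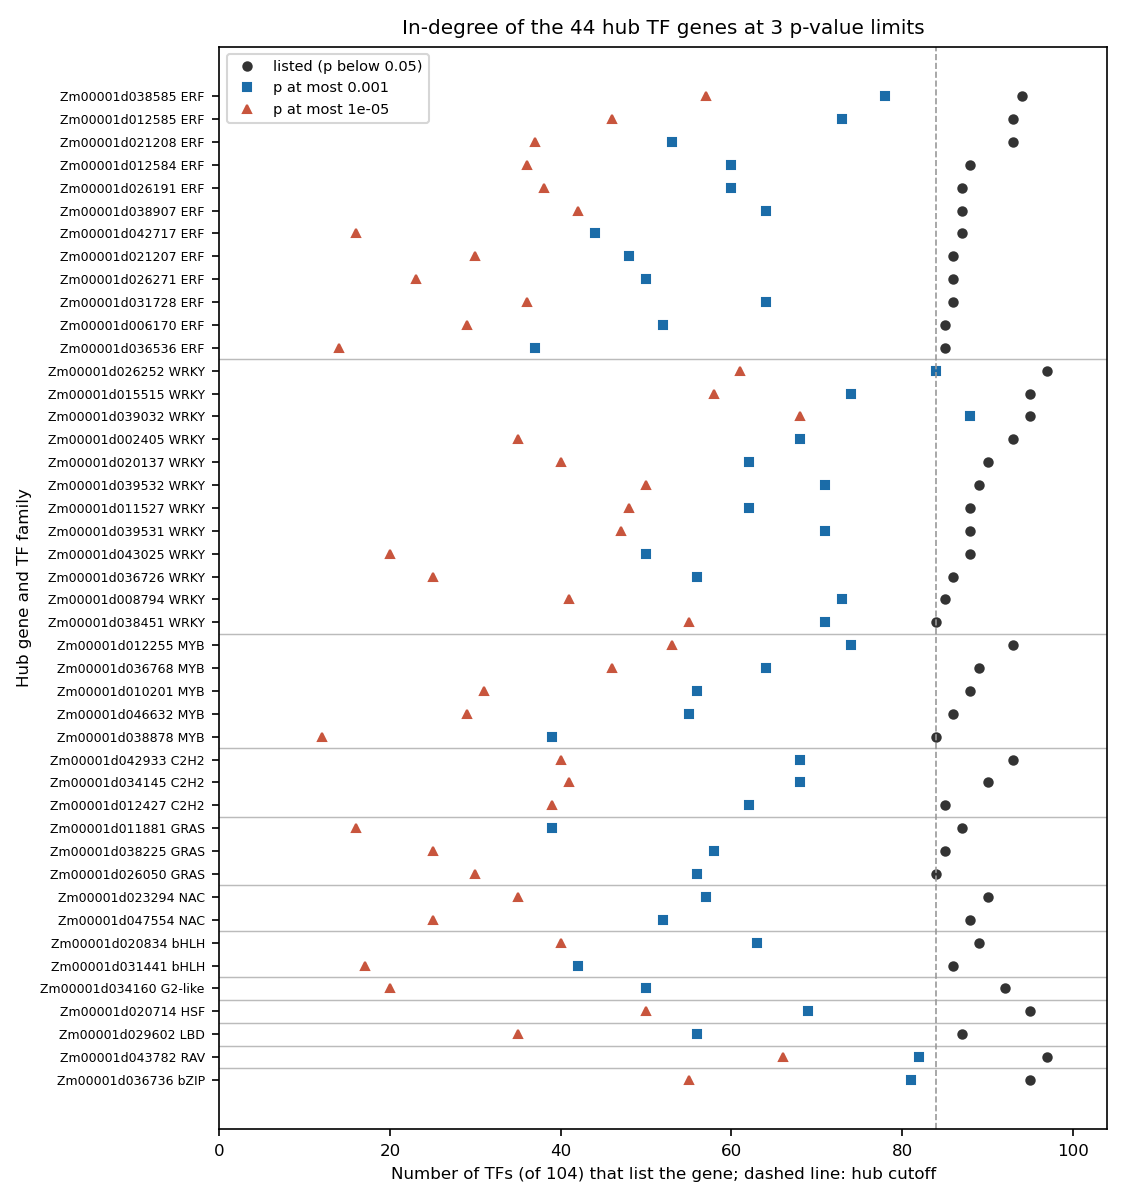
In-degree of the 44 members, ordered by family and then by in-degree. The x axis is the number of TFs of 104, circles count all listed TFs, squares those with a p-value of 0.001 or less and triangles those with 1e-05 or less. The circles lie between 84 and 97, while the squares spread from 37 to 88 and the triangles from 12 to 68.

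In-degree and strength of binding were not the same order. The highest in-degree, 97, was shared by the WRKY gene Zm00001d026252 and the RAV gene Zm00001d043782, RAV proteins carrying an AP2 and a B3 domain. Zm00001d026252 had 84 TFs at 0.001 or less and a median percentile of 96.8, with a lower quartile of 88.0 and an upper quartile of 98.8. Its smallest p-value was 1.2e-87 under DOF21 and its largest was 0.0471 under EREB97. Zm00001d043782 had 82 TFs at 0.001 or less, a median percentile of 95.9, and its smallest p-value of 3.57e-29 as the first target of COL13. Only 7 TFs missed each of these genes, and both lists of 7 held bHLH91, GLK53 and MYBR40.

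Among the 4 members at 95, the WRKY gene Zm00001d039032 had the highest median percentile of all members, 97.4, and 88 of its 95 TFs were at 0.001 or less. It stood among the first 10 targets of 19 TFs and was the first target of ZIM18 (p-value 8.21e-43) and of COL7 (1.28e-12). The WRKY gene Zm00001d015515 was the first target of 4 TFs. These were MYBR64 with a p-value listed at 0, where it tied with other targets, GATA12 with 1.75e-186, ZIM1 with 2.01e-108 and SIG6 with 1.19e-30. The HSF gene Zm00001d020714, from the family of heat shock factors, was the first target of EREB34 (6.05e-66) and followed under LHY1 (1.14e-61). The bZIP gene Zm00001d036736 had 81 TFs at 0.001 or less and a median percentile of 94.5, yet was the first target of no TF, and its best place was the second under ELF3.

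At the other end, the WRKY gene Zm00001d038451 was listed by 84 TFs, the lowest count of any member, but had a median percentile of 96.0 and 71 TFs at 0.001 or less. It was second under MYB6. The MYB gene Zm00001d038878 had the same in-degree with a median percentile of 76.5 and 39 TFs at 0.001 or less. Its smallest p-value was 1.89e-15 under NAC49. The GRAS gene Zm00001d026050 had a median percentile of 83.7 and 56 TFs at 0.001 or less. These 3 genes shared the lowest in-degree and differed in how many of their edges were at 0.001 or less.

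Median percentiles over the members ran from 67.1 to 97.4. The lowest belonged to the ERF gene Zm00001d036536, which had 37 of its 85 TFs at 0.001 or less. It nevertheless held place 4 among the targets of CCHH133, with a p-value of 3.95e-158, followed by 2.89e-13 under MYBR87. The GRAS gene Zm00001d011881 came next at 74.1, with 39 of 87 TFs at 0.001 or less. In 40 of the 44 members, 50% or more of the listing TFs were at 0.001 or less. The exceptions were these 2 genes with Zm00001d038878 and the bHLH gene Zm00001d031441.

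Members were the first target of a TF in 20 pairs, which involved 19 TFs and 11 members, since MYBR64 had members tied at a p-value of 0. A tie for the smallest p-value was counted as first place. In all, 146 of the 1040 places among the first 10 targets of the TFs went to members, spread over 72 TFs and 28 members. Members were 0.219% of all target genes, and the rule bears on these places too. WRKY genes held 57 of these places, MYB genes 27, ERF genes 23, C2H2 and bHLH genes 11 each, the RAV gene 9, the HSF gene 6 and the bZIP gene 2. GRAS, NAC, LBD and G2-like genes held none. Single genes held many of the places of a family. Of the WRKY places, Zm00001d039032 held 19, Zm00001d015515 held 10 and Zm00001d026252 held 9. The WRKY genes Zm00001d002405, Zm00001d036726 and Zm00001d043025 held none. Zm00001d012255 held 15 of the MYB places, Zm00001d038585 14 of the ERF places and Zm00001d020834 10 of the bHLH places. The MYB gene Zm00001d012255 was the first target of 4 TFs, MYB6, MYB31, MYBR32 and WRKY53, and had a median percentile of 96.4. Its smallest p-value was 4.62e-264 under PRR, where it held place 4.

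The 12 WRKY genes had an in-degree of 84 to 97 (median 88.5) and the 12 ERF genes of 85 to 94 (median 87), and 8 of the WRKY genes lay within the ERF range. The WRKY genes had a median of 71 TFs at 0.001 or less (range 50 to 88) and the ERF genes of 56.5 (range 37 to 78). At 1e-05 or less the medians were 47.5 and 36. The median percentile was 93.8 for the WRKY genes (range 78.2 to 97.4) and 86.7 for the ERF genes (range 67.1 to 93.7). These ranges overlapped too, and the difference, -7.17 points for ERF minus WRKY, was not tested. Without the EREB and WRKY TFs it was -4.37 points. In pairs, 66.5% of the WRKY and 54.7% of the ERF pairs were at 0.001 or less, while 13.6% and 15.3% were not listed.

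Within the WRKY family, Zm00001d026252 had the highest in-degree and Zm00001d038451 the lowest. Zm00001d002405 was listed by 93 TFs with a median percentile of 84.4, Zm00001d020137 by 90 with 88.9, and Zm00001d011527 by 88 with 92.0. Zm00001d011527 was the first target of HB70 with a p-value of 3.75e-26. Zm00001d043025 had the lowest median percentile of the family, 78.2, at an in-degree of 88. Zm00001d036726 (in-degree 86, median percentile 84.3) and Zm00001d008794 (85, 93.7) completed the family with the consecutive genes described below. The orders by in-degree and by percentile differed here, since 3 WRKY genes had a higher in-degree than Zm00001d002405 and 9 had a higher median percentile.

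Within the ERF family, Zm00001d038585 led by each measure. It was listed by 94 TFs, 78 of them at 0.001 or less, and had a median percentile of 93.7. It was the first target of EREB17 (p-value 9.5e-33) and of EREB172 (3.47e-26), and its smallest p-value was 1.62e-231 under MYBR64. Leaving the 4 consecutive genes for below, Zm00001d038907 (in-degree 87) had a median percentile of 91.0 and Zm00001d026191 (87) with 88.0. Zm00001d031728 (86) had 86.8, Zm00001d006170 (85) had 82.2, Zm00001d026271 (86) had 81.1 and Zm00001d042717 (87) had 78.2. No TF gave Zm00001d042717 a p-value under 5.71e-11, the weakest best edge of the genes of this family. The lowest in-degree of 85 was shared by Zm00001d006170 and Zm00001d036536.

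MYB proteins are known regulators of phenylpropanoid metabolism, development and stress responses. The 5 MYB genes had a median in-degree of 88 and a median percentile of 85.2. Their median percentiles ran from 76.5 for Zm00001d038878 to 96.4 for Zm00001d012255. Zm00001d036768 was listed by 89 TFs with a median percentile of 90.9, was the first target of ZIM16 (2.29e-60) and came second under COL7 and COL13. Zm00001d010201 (in-degree 88, median percentile 85.1) had its smallest p-value, 1.39e-47, under MYB62. Zm00001d046632 (86, 85.2) was the first target of MYB37 (1.77e-31).

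The 3 C2H2 zinc finger genes had a median in-degree of 90 and lay close together, with 62 to 68 TFs at 0.001 or less and median percentiles of 87.6 to 90.7. Zm00001d042933 was listed by 93 TFs and came second under LG2 with a p-value of 1.12e-49. Zm00001d034145 was listed by 90 TFs and held place 3 under MYBR32 with 1.12e-39. Zm00001d012427 was listed by 85 TFs and was the first target of MAB16 with 6.51e-247. It also tied with other targets for first place under MYBR64, listed at 0.

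GRAS proteins, the family of the DELLA repressors of gibberellin responses, had the lowest median in-degree of the families with 3 or more genes, 85, and a median percentile of 83.7. Beside the 2 GRAS genes above, Zm00001d038225 had an in-degree of 85, 58 TFs at 0.001 or less and a median percentile of 84.8, with its smallest p-value of 1.14e-29 under MYB62. The NAC genes Zm00001d023294 (in-degree 90) and Zm00001d047554 (88) had median percentiles of 86.8 and 84.7, NAC being a plant family with known roles in senescence and cell wall formation. Their smallest p-values were 1.15e-29 under ZIM1 and 1.91e-41 under GLK1. The LBD gene Zm00001d029602, of a family that acts at organ boundaries, had an in-degree of 87 and a median percentile of 84.5. The 2 bHLH genes and the G2-like gene are described with the TFs of their own families.

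**Figure D2:**
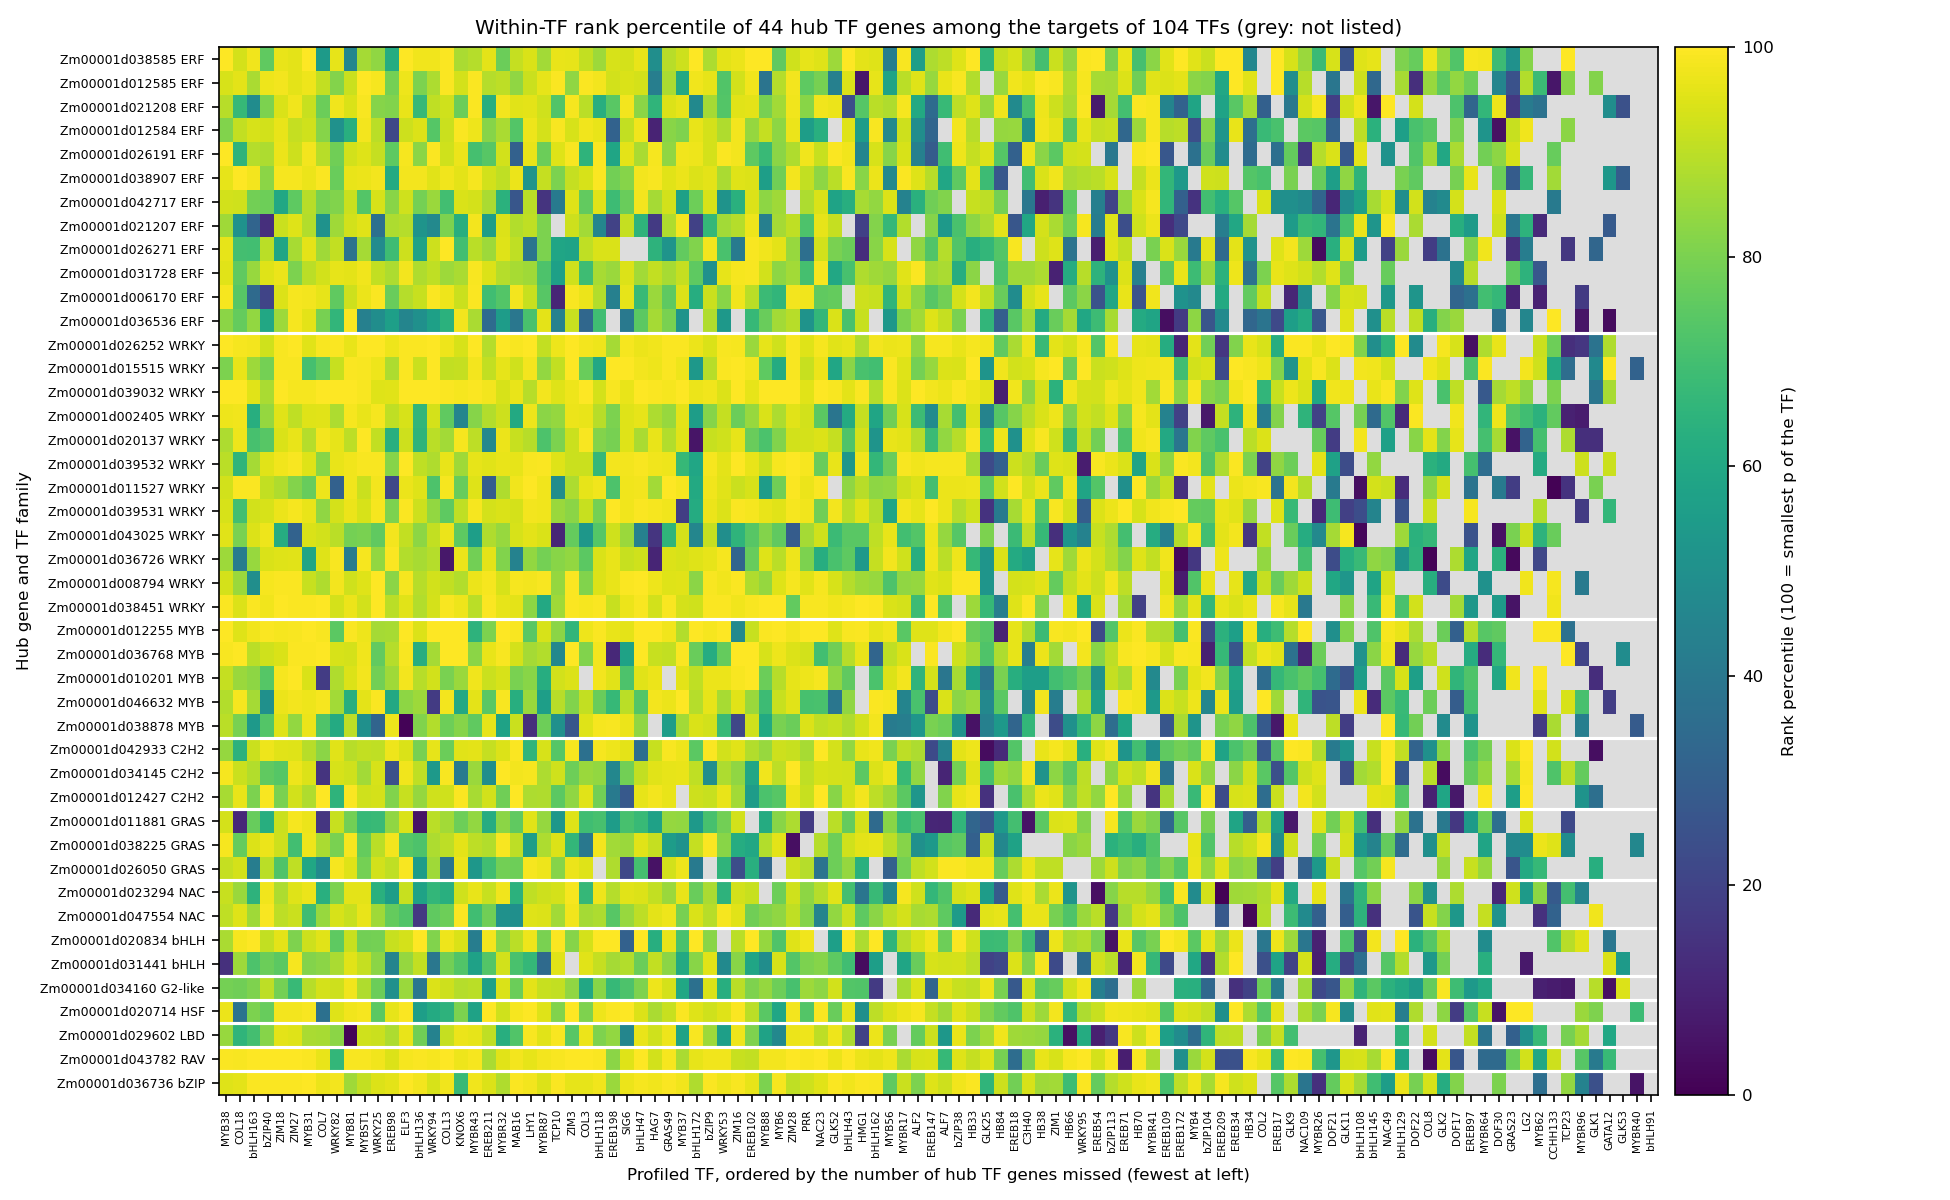
Rank percentile of the 44 members (rows, grouped by family, in-degree falling within a family) under the 104 TFs (columns, from those that missed no member to those that missed most). Colour runs from 0 to 100, where 100 is the smallest p-value of the TF, and grey marks a pair that was not listed. The grey cells collect at the right, and the column of GLK53 has 5 coloured cells.

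The 658 unlisted pairs were not spread evenly over the TFs. 24 TFs listed all 44 members, 19 missed 1, 37 missed 2 to 9 and 24 missed 10 or more. The last 24 TFs held 73.1% of the unlisted pairs, and the 10 TFs that missed most held 43.5%. The TFs that missed no member came from many families. They were EREB98, EREB211, WRKY25, WRKY82, WRKY94, MYB31, MYB38, MYB81, MYBR32, MYBR43, MYBR87, MYBST1, LHY1, COL7, COL13, COL18, bHLH136, bHLH163, bZIP40, KNOX6, MAB16, ZIM18, ZIM27 and ELF3.

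Of the 24 TFs that missed 10 or more members, 13 had 21 to 2080 targets and 11 had 2413 to 3135. Among the former, bHLH91 had 21 targets, missed all 44 members and yet listed 4 of the 162 hub genes without a family. MYBR40 had 161 targets and missed 39. GATA12 (1415 targets) missed 29, GLK1 (1193) missed 28, MYBR96 (906) missed 25, TCP23 (1697) missed 24 and CCHH133 (2080) missed 21. MYB62 (1213) missed 19 and LG2 (1672) missed 18. The TFs with longer lists, beside GLK53 and 3 DOF TFs, were EREB97 (2732 targets, 16 missed), COL8 (2849, 15), bHLH129 (2935, 13), NAC49 (2915, 12), and GLK11, bHLH108 and bHLH145, which missed 11 each. Of the 24 TFs, only bHLH91 and GLK53 listed a smaller share of the members than of all target genes, and the hub limit bears on this. The shares of members and of all target genes were 34.1% and 7.05% for GATA12 and 36.4% and 5.95% for GLK1. They were 43.2% and 4.5% for MYBR96, 11.4% and 0.802% for MYBR40, and 63.6% and 13.6% for EREB97. Over the 104 TFs, the number of members missed and the number of targets had a Pearson correlation of -0.66 and a Spearman correlation of -0.45. Without bHLH91 and MYBR40, the TFs farthest from the median number of targets, these were -0.52 and -0.42 over 102 TFs. The points share the members and the hub limit, so the correlation is given as a description.

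GLK53 missed the most members of any TF with more than 161 targets. It had 3135 targets, 15.6% of all target genes, and listed 5 of the 44 members, or 11.4%. The members it listed were the G2-like gene Zm00001d034160 (p-value 7.03e-08, percentile 94.6), the bHLH gene Zm00001d031441 (0.00477, 54.6), the MYB gene Zm00001d036768 (0.00738, 48.7) and the ERF genes Zm00001d038907 (0.0191, 29.5) and Zm00001d021208 (0.0235, 24.8). It listed none of the 12 WRKY genes. It also listed 53 of the 162 hub genes without a family, or 32.7%, and 5 of the 10 hub genes of profiled TFs. The targets of GLK53 had a median in-degree of 6, and the median of this value over the 104 TFs was 39. GLK53 therefore combined a long list with targets that few other TFs listed.

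**Figure D3:**
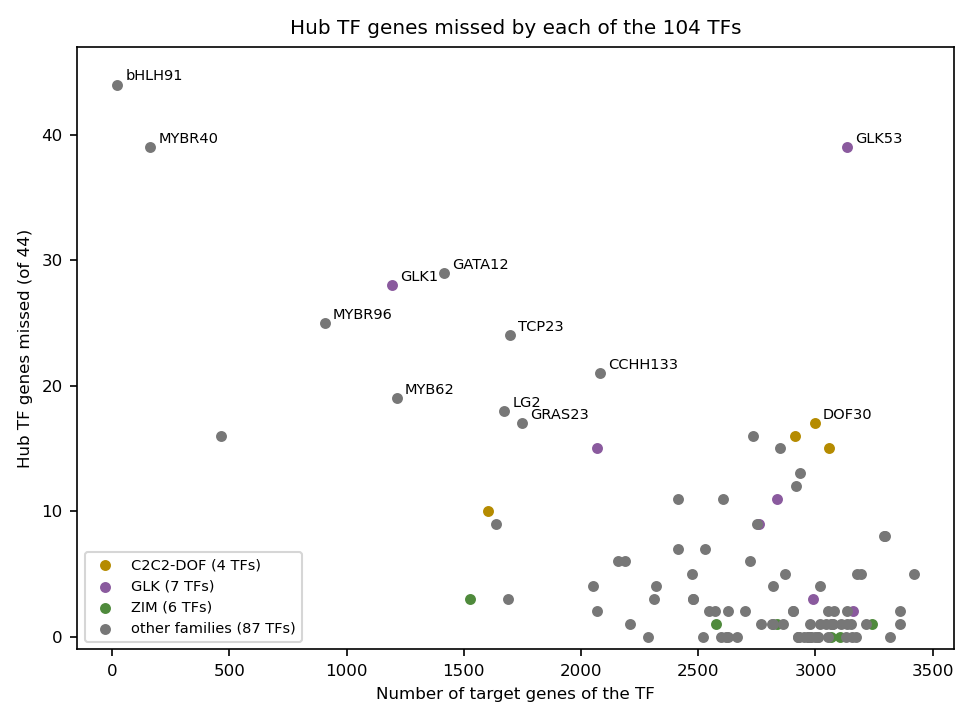
Number of the 44 members missed by each of the 104 TFs (y axis) against the number of target genes of the TF (x axis). Each point is a TF, and the GLK, C2C2-DOF and ZIM TFs are coloured. bHLH91 and MYBR40 lie at the upper left with 21 and 161 targets, GLK53 lies alone at the upper right with 3135, and the 6 ZIM TFs lie at 0 to 3 members missed.

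The 4 DOF TFs missed 10 to 17 members each. DOF21 had 1603 targets and the other 3 had 2912 to 3056. Together they listed 67.0% of their pairs with members against 13.2% of all target genes. The listed share differed between families of members. The DOF TFs listed 87.5% of the ERF pairs (42 of 48), 66.7% of the WRKY pairs (32 of 48), 5 of 12 GRAS pairs and 3 of 12 C2H2 pairs. DOF21 missed 1 ERF and 1 WRKY gene, so the ERF and WRKY gap came from the other 3. By strength the order turned, with 39.6% of the ERF and 43.8% of the WRKY pairs at 0.001 or less. Median percentiles over listed pairs were 74.3 for ERF and 86.3 for WRKY. With unlisted pairs at 0 they were 71.7 and 58.4. The C2H2 pairs that were listed had p-values of 0.00207 (Zm00001d042933 under DOF21), 0.0251 (Zm00001d042933 under DOF22) and 0.0439 (Zm00001d012427 under DOF17). The same 3 C2H2 genes were listed by all 3 NAC TFs at percentiles of 92.4 to 99.8, and the largest of these p-values was 7.94e-06, for Zm00001d034145 under NAC23. Zm00001d042933 ranked 7th, 11th and 14th among the targets of NAC23, NAC49 and NAC109.

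GLK TFs listed 65.3% of their pairs with members, against 12.9% of all target genes. Under these 7 TFs the share was 60.7% for the ERF and 61.9% for the WRKY genes. GLK53, GLK1 and GLK2 contributed most of the unlisted pairs, with 39, 28 and 15 members missed. The other 4 GLK TFs missed 2 to 11. The ZIM TFs, whose family holds the JAZ repressors of jasmonate signalling, missed few members. They listed 258 of 264 pairs, or 97.7%, against 13.6% of all target genes, and missed 0 to 3 members each. The 5 WRKY TFs had the same listed share (215 of 220 pairs). 88.6% of the ZIM pairs were at 0.001 or less, and the 6 ZIM TFs had median percentiles of 91.9 to 96.3 over the members. Each ZIM TF had 845 to 1061 targets at 0.001 or less among the 20067 target genes. Over all TFs and target genes the share at this limit was 3.56%.

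Ranked by the median percentile of the members they listed, among TFs that listed 22 or more, the first were ZIM27 (96.3), ELF3 (96.1), ZIM18 (95.6), bHLH47 (95.4) and MYBST1 (95.4). ELF3 is a component of the circadian evening complex. The last were GRAS23 (50.6), DOF21 (60.8), MYB62 (64.7), EREB209 (65.6) and DOF30 (66.6). Neighbours in this order could not be told apart without replicate values. For GRAS23, a median near 50 placed the members it listed in the middle of its own targets.

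ERF and WRKY genes were compared under each TF, with unlisted pairs set to a percentile of 0. The WRKY genes had the higher median under 75 TFs, the ERF genes under 23, and the medians were equal under 6. Under those 6 both medians were 0, since most genes of both families were unlisted, so the tie does not mean similar ranks. Among listed genes, GATA12 had medians of 38.6 for ERF and 88.0 for WRKY, and TCP23 had 82.6 and 14.6. The largest lead of the ERF genes was under bHLH108, where their median percentile was 91.1 and that of the WRKY genes 13.6. LG2 (55.3 and 15.9), GLK11 (75.0 and 37.9) and MYBR26 (67.1 and 33.5) followed. The WRKY genes led by most under CCHH133, where the ERF median was 0 and the WRKY median 68.1, and under MYB62 (0 and 62.6), COL2 (34.5 and 87.2) and HB34 (48.6 and 93.0). Over listed pairs alone, some of these gaps vanished or turned. LG2 missed 6 WRKY and 3 ERF genes, and the medians of those it listed were 64.6 for ERF and 87.8 for WRKY. CCHH133 missed 7 ERF and 4 WRKY genes and had 76.9 and 77.5, and MYBR26 had 71.3 and 68.2. The direction was kept under bHLH108 (93.1 for ERF and 73.5 for WRKY), GLK11 (81.4 and 72.8), MYB62 (27.2 and 67.5), COL2 (71.3 and 91.0) and HB34 (50.9 and 96.6). In this form the WRKY genes had the higher median under 75 and the ERF genes under 26 of the 101 TFs that listed genes of both families.

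**Figure D4:**
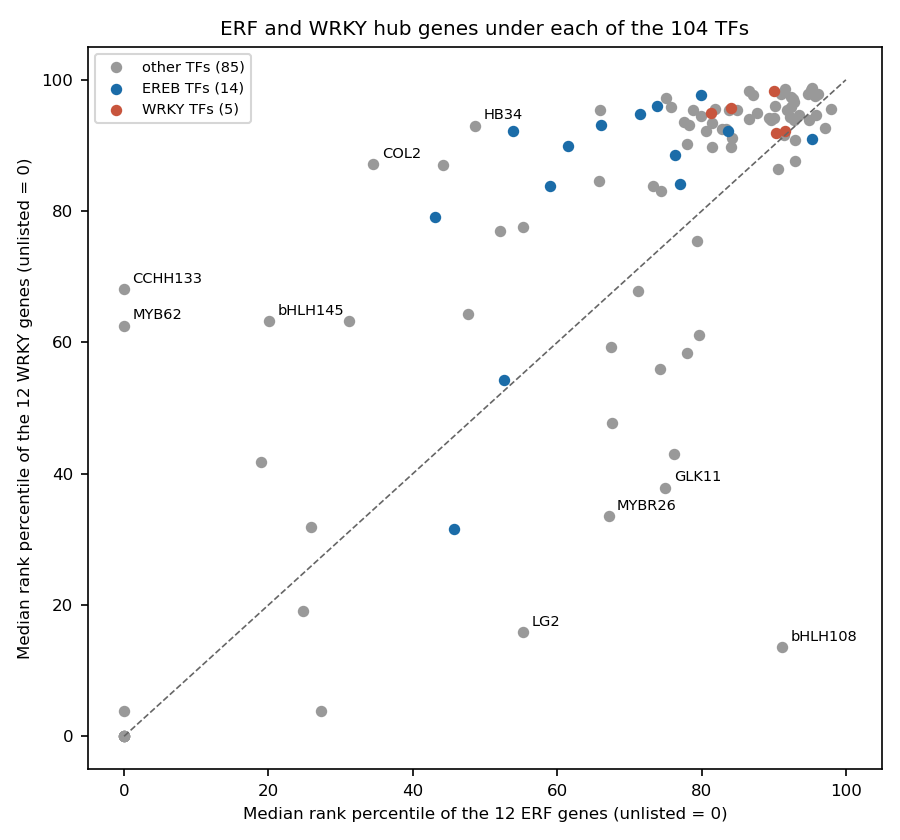
Median rank percentile of the 12 WRKY members (y axis) against that of the 12 ERF members (x axis) under each of the 104 TFs, with unlisted pairs at 0. Points above the dashed line are the 75 TFs under which the WRKY genes ranked higher, and the 14 EREB and 5 WRKY TFs are coloured. bHLH108 lies at the lower right with 91.1 and 13.6, and CCHH133 and MYB62 lie on the left edge.

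Members were next set beside the profiled TFs of their own family. The 14 EREB TFs listed 147 of 168 pairs with the ERF genes, or 87.5%, against 13.7% of all target genes. The ERF genes had a median percentile of 77.9 under them and of 86.5 under the 90 other TFs, and the share of pairs at 0.001 or less was 38.1% and 57.3%. Genes of the other families also had lower values under the EREB TFs, with medians of 85.4 under EREB and 89.8 under other TFs and shares of 52.0% and 62.1%. The WRKY genes had a median of 90.6 under the EREB TFs. With unlisted pairs at 0, they ranked above the ERF genes under 12 of the 14. Over listed pairs alone, the ERF genes had the higher median under EREB17, EREB71, EREB97, EREB102 and EREB172, and the WRKY genes under the other EREB TFs. The medians under EREB172 were close, at 54.3 for ERF and 54.2 for WRKY.

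The ERF genes were split under the EREB TFs. Zm00001d038585 was listed by all 14, at 0.001 or less by 12, with a median percentile of 97.7, and stood among the first 10 targets of 6. Zm00001d012585 was listed by all 14 with a median of 93.9, and Zm00001d031728 and Zm00001d026271 by all 14 with 88.4 and 88.0. At the low end, Zm00001d026191 was listed by 9 of the 14 EREB TFs, by none at 0.001 or less, with a median of 48.7, although its median over all TFs was 88.0. Zm00001d021207 (13 of 14, median 42.9) and Zm00001d036536 (10 of 14, median 52.2) were also low.

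The 5 WRKY TFs listed all 60 pairs with the WRKY genes, against 14.6% of all target genes and 96.9% of pairs with members of the other families (155 of 160). The median percentile of the WRKY genes was 94.7 under WRKY TFs and 92.8 under other TFs, a difference of 1.93 points, or of 5.96 points with unlisted pairs at 0. The share at 0.001 or less was 85.0% under WRKY TFs and 65.6% under other TFs, and it was 65.6% and 55.8% for the members of the other families. Zm00001d015515 (median 99.5) and Zm00001d026252 (99.4) were highest under the WRKY TFs. Zm00001d011527 (72.0) and Zm00001d043025 (75.8) were lowest, with 2 of 5 WRKY TFs at 0.001 or less for each. With unlisted pairs at 0, the WRKY genes ranked above the ERF genes under all 5. Over listed pairs alone, the ERF genes had the higher median under WRKY95, at 95.1 against 92.15, and the WRKY genes under the other WRKY TFs.

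The 9 MYB TFs listed 44 of 45 pairs with the MYB genes, against 13.8% of all target genes. The MYB genes had a median percentile of 95.1 under MYB TFs and 85.5 under other TFs, and 80.0% and 53.1% of the pairs were at 0.001 or less. For the members of the other families the medians were 89.4 and 88.0. Zm00001d012255 had a median of 99.5 under the MYB TFs, with all 9 at 0.001 or less, and Zm00001d038878 was again the lowest with 79.8 and 4 of 9.

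Zm00001d020834, a bHLH gene, held high places under the TFs of its own family. bHLH proteins bind E-boxes as dimers. The gene was listed by 10 of the 11 bHLH TFs, all but bHLH91 with its 21 targets, and had a median percentile of 99.9 under them. It was the second target of bHLH118 (p-value 7.04e-13), bHLH136 (4.91e-14), bHLH162 (6.24e-13) and bHLH172 (2.24e-20), the fourth of bHLH163 and the fifth of bHLH129, and it held place 10 under bHLH47. It came 18th under bHLH43 and 42nd under bHLH145. bHLH108 was the exception, with a p-value of 0.0302 and a percentile of 20.8. 7 of the 10 TFs that held it among their first 10 targets were bHLH TFs, while its median percentile over all 89 TFs was 88.7. The other bHLH gene, Zm00001d031441, had an in-degree of 86, 42 TFs at 0.001 or less and a median percentile of 77.4. It was listed by 9 of the 11 bHLH TFs and by 3 of them at 0.001 or less. Its median under the bHLH TFs was 77.6, and it was among the first 10 targets of none of them. Members of the other families had a median of 86.0 under the bHLH TFs and 88.65 under other TFs. The bHLH TFs listed 82.0% of their pairs with those members and, by TF, 0.105% to 15.7% of all target genes. The 2 smallest p-values of Zm00001d020834, 1.31e-28 and 7.63e-21, came from ZIM1 and bZIP38.

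The G2-like gene Zm00001d034160 had its 2 smallest p-values under TFs of its own family, with 1.2e-27 under GLK2 and 2.13e-14 under GLK1. By percentile GLK2 was first as well, at 98.9. GLK1 was not second, since no member stood above 97.7 there and this gene was not the highest. It held place 57 under a WRKY TF, and the WRKY TFs had 2820 targets or more. G2-like is the family of the GOLDEN2-like (GLK) regulators of chloroplast development. It was listed by 6 of the 7 GLK TFs with a median percentile of 93.8 and by 86 of the 97 other TFs with 77.6. Members of the other families had a median of 76.3 under the GLK TFs and 88.8 under the other TFs. It was the highest ranked member of GLK53. The remaining families rest on too few pairs for more than their values. The 3 NAC TFs listed 3 of their 6 pairs with the NAC genes, against 15% of all target genes, with a median percentile of 47.9, and the median under the other TFs was 85.2. The 2 GRAS TFs listed 5 of 6 pairs with the GRAS genes (median 55.3). The bZIP TFs listed 5 of 6 with the bZIP gene (97.9) and the C2H2 TF 2 of 3 with the C2H2 genes (82.7). With members of the other families, the GRAS, bZIP and C2H2 TFs listed 79.3%, 88.4% and 51.2% of their pairs. Of all target genes, the GRAS TFs listed 8.72% and 15.3%, the bZIP TFs 8.33% to 15.6% by TF, and the C2H2 TF 10.4%.

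The genes of the profiled TFs of these families were also read as targets. Their in-degree had a median of 59.5 for the 14 EREB genes (range 0 to 95), 67 for the 5 WRKY genes (13 to 90), 3 for the 9 MYB genes (0 to 80), 21 for the 11 bHLH genes (0 to 82), 11 for the 6 bZIP genes (1 to 30) and 9 for the 7 GLK genes (1 to 41). The 3 NAC genes had a median of 86, the 2 GRAS genes had 1 and 87, and the C2H2 gene had 3. Of these, 4 EREB, 2 NAC, 1 WRKY and 1 GRAS gene reached the hub limit. Peaks at the locus of a TF's own gene were removed in the study, which bears on these genes and not on the members.

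Beside the other hub genes, the members had the same in-degree by construction (median 88, against 89 for each of the other groups). The number of TFs at 0.001 or less had a median of 62 for the members (quartiles 52.8 and 71), 58 for the 162 hub genes without a family (53 and 67) and 61 for the 10 hub genes of profiled TFs (51 and 73). At 1e-05 or less the medians were 37.5, 31 and 36.5, and the median percentiles were 87.7, 84.7 and 87.4. The ranges overlapped throughout, and the highest values at 0.001 or less, 90, and at 1e-05 or less, 81, belonged to hub genes without a family. Over all target genes the median percentile was 37.1.

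The likeness of 2 members was measured as the Spearman correlation of their percentiles over the 104 TFs, with unlisted pairs at 0. The points share the TFs that list few members, and the values are given as a description. Over the 946 pairs of members the median was 0.30, and 10 pairs were below 0. Pairs of ERF genes had a median of 0.32, pairs of WRKY genes 0.35, and pairs of 1 ERF and 1 WRKY gene 0.32. The median was 0.34 over the 150 pairs of the same family, 0.33 over the 147 of these whose identifiers are not consecutive, and 0.30 over the 796 pairs of different families.

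The 3 most alike pairs were the 3 pairs with consecutive identifiers. Identifiers in this annotation were given along the chromosomes, but whether the genes of a pair share an upstream region was not analysed here. The ERF genes Zm00001d021207 and Zm00001d021208 had a correlation of 0.88. They were listed by 86 and 93 TFs with median percentiles of 80.4 and 86.6, and each of the 11 TFs that missed Zm00001d021208 also missed Zm00001d021207. The 7 TFs that listed Zm00001d021208 only gave it p-values of 0.00339 to 0.0295. The percentiles of these 7 edges ran from 24.2 under bHLH43 to 72.7 under TCP10.

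The WRKY genes Zm00001d039531 and Zm00001d039532 had a correlation of 0.81, with 88 and 89 TFs, median percentiles of 94.0 and 94.5, and 86 TFs that listed both. 5 TFs listed one of them, and the smallest p-value among these was 0.000516, for Zm00001d039532 under GLK2. The ERF genes Zm00001d012584 and Zm00001d012585 had a correlation of 0.69, with 88 and 93 TFs and median percentiles of 87.8 and 89.8. 11 TFs listed one of these, and some did so with small p-values, such as 4.26e-09 for Zm00001d012585 under GLK1 and 9.17e-08 for Zm00001d012584 under MYBR26. The next pair, with identifiers 427 apart, was the WRKY gene Zm00001d038451 and the MYB gene Zm00001d038878 at 0.62, and 11 of the 20 TFs that missed each were shared.

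**Figure D5:**
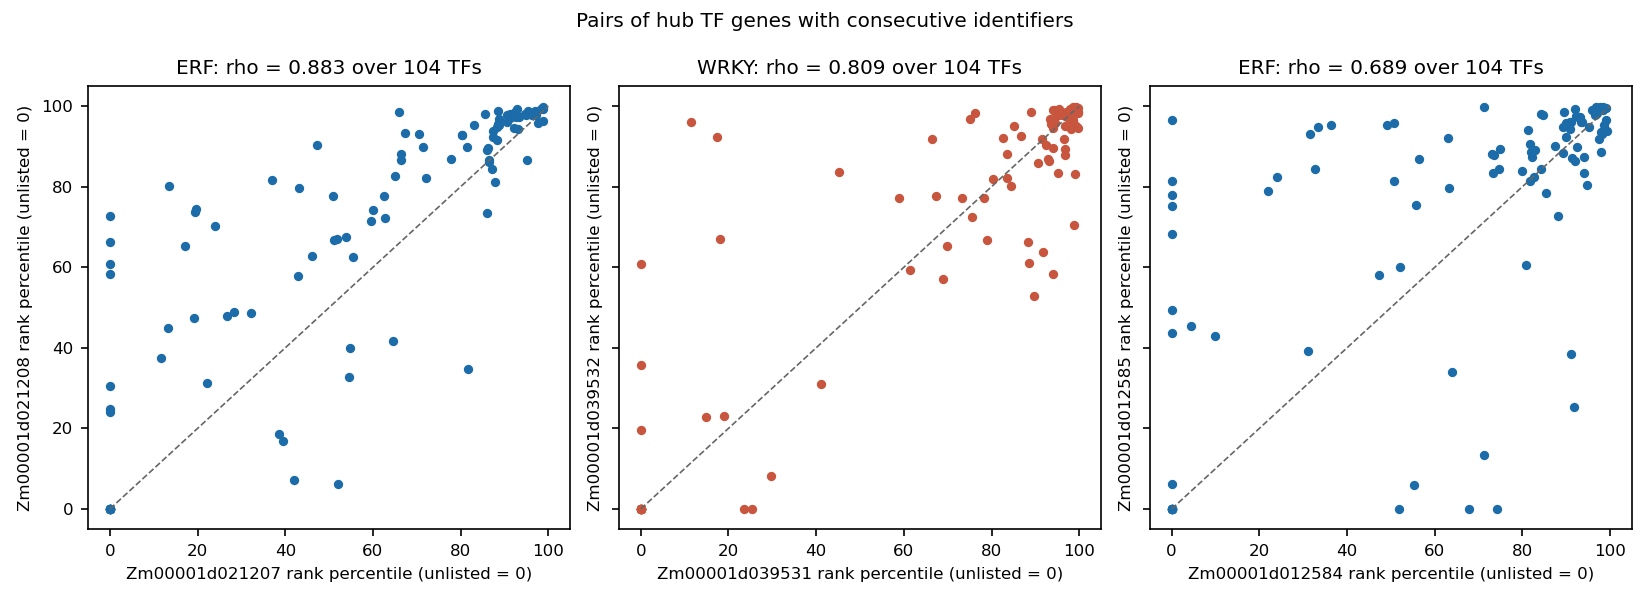
Rank percentile of the genes of each consecutive pair under the 104 TFs, 1 point a TF, with unlisted pairs at 0. The panels show the ERF pair with a Spearman correlation of 0.88, the WRKY pair with 0.81 and the ERF pair with 0.69. Points on an axis are TFs that listed 1 of the genes, 7, 5 and 11 of them from left to right.

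At the other end, the bHLH gene Zm00001d020834 and the ERF gene Zm00001d021207 had the lowest correlation, -0.13. Zm00001d015515 (WRKY) with Zm00001d038878 (MYB) had -0.10 and Zm00001d020834 with Zm00001d021208 had -0.10. Zm00001d020834 and Zm00001d021207 were both listed by 75 TFs and differed in where they stood within those lists.

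Consecutive identifiers were also looked up outside the set. Of the 88 identifiers 1 below or above a member, 13 were hub genes, or 14.8%, and 24 had an in-degree of 50 or more. 6 of the 13 were the consecutive members themselves. The other 7 were hub genes without a family, and one was Zm00001d042934 with an in-degree of 91, next to the C2H2 gene Zm00001d042933. For the hub genes without a family the share of hub genes was 17.6% (57 of 324 identifiers), and for all target genes it was 0.802%. An in-degree of 50 or more was held by 122 of those 324 identifiers, and by 2016 of 40132 for all target genes. The gene after the ERF gene Zm00001d038585, Zm00001d038586, had an in-degree of 83 and so missed the limit by 1 TF.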

How the data were processed

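The deposited table lists, for each of 104 TFs, its target genes with a p-value. Per the study's methods and the submitters' processing notes, the authors mapped reads to B73 RefGen_v4 with Bowtie2 2.2.5, filtered them with SAMtools 1.3, called reproducible peaks against input, removed peaks at a TF's own locus and scored genes with TIP. The p-values were deposited by the authors with replicates pooled, and only pairs below 0.05 are listed. The study describes its cut for targets as a false-discovery rate, an expected share of false targets, of 0.05. Whether the deposited values were adjusted for this is unknown here. A pair that is not listed has no value. The depth behind a p-value is unknown here.

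In-degree was counted per gene over the TFs. The 99th percentile of in-degree (84) was the hub limit. Rank percentiles used mid-ranks of the p-value within a TF. 35 p-values are exactly 0 and tie. TF names and families, and the families of hub genes, were taken as labels from the study's annotation. Members, families and lists were chosen with earlier results of these data known. Named in full were the members and TFs at the ends of the in-degree, percentile and missed-member orders, every member of a family with fewer than 3 genes, and consecutive pairs. Counts were made with Python 3.11.15, pandas 2.3.3, numpy 2.4.6 and scipy 1.17.1, and the scripts were tested on simulated data. No test was made, since the rule used the same values.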

Additional observations from a re-analysis of the deposited data

How the results depend on the processing

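The number of members was 25 with edges at a p-value of 0.001 or less and the 99th percentile of that network, all 25 among the 44 (10 WRKY, 6 ERF, 9 others). It was 41 strictly above the percentile and 41 without the 3 TFs that had fewer than 500 targets. Families were annotated for the study's hub genes only, so a TF gene outside that list could not be counted. These counts and their family split therefore show losses from the 44 only, and that all lay among the 44 was fixed in advance. The share of pairs listed was 59.1% at 0.001, 36.2% at 1e-05 and 87.4% without those 3 TFs. At 0.001 or less, 0 TFs listed every member, against 24 in the full table, and 34 missed 50% or more, against 7. The ERF minus WRKY difference in median percentile of -7.17 points kept its sign under each alternative. It was -9.30 with unlisted pairs at 0, -8.53 with consecutive genes counted once, -4.37 without EREB and WRKY TFs, -7.21 without the 3 TFs with few targets (added after seeing the data) and -1.76 on the -log10 p scale. The difference of ERF genes under EREB and other TFs was -8.65 points, -8.53 with unlisted pairs at 0, and -19.2 percentage points in the share at 0.001 or less. For WRKY genes under WRKY TFs it was 1.93, 5.96 and 19.4. The WRKY genes had the higher median under 75 of 104 TFs with unlisted pairs at 0. With those pairs left out, a setting added after seeing the data, it was 75 of 101 TFs. The equal counts do not cover the same TFs. LG2 and DOF17 were among those that moved from ERF to WRKY, and COL8 and WRKY95 among those that moved from WRKY to ERF. No replicate could be left out, and no paired analysis was possible because the replicates of a TF were pooled into 1 p-value.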
